A study of Mus musculus with 6 samples.

Results

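The cyclin-dependent kinase (CDK) inhibitor genes, the retinoblastoma genes and the Polycomb gene Cbx7 were followed in mouse embryonic fibroblasts with and without a working Ing1 locus. The members were named as a set of 10 genes (Cdkn1b, Cdkn1c, Cdkn2a, Cdkn2b, Cdkn2c, Cdkn2d, Rb1, Rbl1, Rbl2 and Cbx7), and a probe counted as a member when its only annotated symbol was one of them. This gave 12 probes for 9 genes, out of 34967 transcript probes that stand for 18069 genes by such symbols. Cdkn1b, the gene of p27, matched no probe by that rule and was not analysed here. Cdkn2c, Rb1 and Cbx7 had 2 probes each. Of the 12 probes, 9 carried a good quality flag on all 6 arrays and were tested, covering 8 genes, and 3 were flagged low on all 6 arrays.

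These genes are the brakes of the G1 phase. The Ink4 proteins (p16 and p15 from Cdkn2a and Cdkn2b, p18 and p19 from Cdkn2c and Cdkn2d) bind CDK4 and CDK6, and the Cip/Kip proteins, among them p57 from Cdkn1c, bind CDK complexes more widely. Unphosphorylated pocket proteins, Rb from Rb1, p107 from Rbl1 and p130 from Rbl2, hold E2F transcription factors and keep S-phase genes low. Cdkn2a also encodes Arf from an alternative first exon, which stabilises p53 by binding Mdm2, and Cbx7 is a Polycomb reader known for repressing the Ink4/Arf locus. In cultured mouse embryonic fibroblasts the locus is known to be switched on as passages accumulate.

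Per the labels, 3 cultures came from Ing1-deficient embryos, in which a gene-trap cassette disrupts the locus, and 3 from wild-type littermates, all at early passage and each from its own embryo. The comparison asks which genes depend on Ing1, a PHD-finger protein that reads methylated histone H3. Each culture was read on 1 single-colour CodeLink array. Cultures carry the labels C4, C3 and B1 (deficient) and H2, H3 and I2 (wild type), and the labels do not say which cultures share a litter. The leading letters are not explained and none holds both genotypes, so letter and genotype cannot be told apart. The labels do not give the strain, the passage number or the sex of the embryos, nor how much transcript the trapped locus still makes.

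Levels below are normalized intensities, the background-corrected spot signal in units of its array's median transcript probe. They can be compared between arrays for 1 probe but not between probes. Differences are on the log2 scale, deficient minus wild type, after values under 0.57 were set to 0.57, which understates differences of dim probes; ± after a difference is its standard error. A probe passed the test at a limma p, adjusted by Benjamini-Hochberg over all 19575 tested probes, under 0.05. In bulk RNA of a culture, fewer cells that express a gene and less RNA per cell cannot be told apart.

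The start sites of the Ink4/Arf locus and of Rbl1 are shown here because E2F, the factor that the pocket proteins hold, is known to act at the Arf start of Cdkn2a and at the start of Rbl1. The windows run from 250 bases before a RefSeq transcript start to 50 after it, on GRCm38.p6, and all 3 are read 5′ to 3′ on the minus strand. Capitals mark a match to an E2F motif, spelled TTTCCCGC, TTTCGCGC, TTTGCCGC or TTTGGCGC and searched on both strands.

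Cdkn2a, upstream start (Arf), chr4:89294570-89294869, minus strand: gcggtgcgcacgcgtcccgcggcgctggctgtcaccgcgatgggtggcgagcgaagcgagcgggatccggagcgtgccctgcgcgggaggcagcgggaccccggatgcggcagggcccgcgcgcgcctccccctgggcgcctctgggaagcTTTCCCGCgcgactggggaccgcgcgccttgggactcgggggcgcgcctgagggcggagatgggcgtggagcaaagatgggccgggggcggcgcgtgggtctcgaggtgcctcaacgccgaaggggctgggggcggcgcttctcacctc
Cdkn2a, downstream start (Ink4a), chr4:89282143-89282442, minus strand: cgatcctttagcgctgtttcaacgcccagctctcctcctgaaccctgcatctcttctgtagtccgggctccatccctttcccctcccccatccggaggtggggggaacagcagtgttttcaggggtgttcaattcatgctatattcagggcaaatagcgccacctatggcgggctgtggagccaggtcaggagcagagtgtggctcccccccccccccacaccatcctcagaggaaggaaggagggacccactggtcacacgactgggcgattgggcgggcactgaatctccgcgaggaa
Rbl1, chr2:157204485-157204784, minus strand: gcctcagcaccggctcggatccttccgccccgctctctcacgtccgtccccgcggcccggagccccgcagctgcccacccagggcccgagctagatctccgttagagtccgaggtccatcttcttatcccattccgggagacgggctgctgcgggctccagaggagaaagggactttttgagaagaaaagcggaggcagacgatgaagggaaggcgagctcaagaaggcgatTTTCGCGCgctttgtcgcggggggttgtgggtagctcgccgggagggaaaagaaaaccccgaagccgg

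The Arf window held 1 match, TTTCCCGC, whose first base lies 99 bases before the start, and the Ink4a window held none of the 4 spellings. The Rbl1 window held 1 match, TTTCGCGC, whose first base lies 18 bases before the start. The table of starts held 10 windows for 8 members (none for Cdkn1c or Rb1), and only these 2 windows, of Cdkn2a and Rbl1, had a match. Among all 32851 windows of the same 300 bases, 2.26% had one. A match describes letters, and a window without one says nothing about E2F binding there.

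The labels were checked on the targeted gene. Ing1 read 1.38 (C4), 0.930 (C3) and 1.39 (B1) in deficient and 11.7 (H2), 11.4 (H3) and 11.1 (I2) in wild-type cultures, so the genotypes lie far apart (-3.23 ± 0.19, limma adjusted p = 0.000286). Whether this probe reads sequence before or after the cassette is not given in the sources used here. Good flags covered 55.5% to 62.1% of transcript probes per array. On the first principal component of the tested probes (55.8% of the variance) the wild-type array H3 lay at 5.84, between the deficient arrays at -39.2 to -26 and the other wild-type arrays at 34.6 and 52.4. All 12 fibroblast markers were above background on all 6 arrays. Signal of the Y-linked gene Eif2s3y was 12.1 to 16.8 in B1, H2 and H3 and 0.0779 to 0.408 in C4, C3 and I2, so 1 deficient and 2 wild-type cultures carried it. Uty, also Y-linked, read 1.59 to 2.51 in B1, H2 and H3 and 0.0435 to 0.373 in C4, C3 and I2. Xist ran the other way, at 1.63 to 4.35 in C4, C3 and I2 and -0.002 to 0.232 in B1, H2 and H3. The Y-linked Kdm5d probe had a good flag on all 6 arrays (1.19 to 3.07) and did not split them.

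Of the 9 tested member probes limma called 0 at the adjusted threshold, while 6.57% of all tested probes passed (1286 of 19575; 4.94% higher and 1.63% lower in deficient cultures). The Ink4 genes did not point one way: Cdkn2a, Cdkn2b and both Cdkn2c probes had higher means in deficient cultures, and Cdkn2d a lower one. The pocket protein genes Rb1 and Rbl2 and the Polycomb gene Cbx7 had lower means there, as did Cdkn1c. By unadjusted limma p under 0.05 there were 5 of 9 probes, Cdkn2a, the dimmer Cdkn2c probe, Cdkn2d, Rb1 and Cbx7, where 26.2% of all tested probes reached that level. The higher ones were 2 of 9 (17% of all probes) and the lower ones 3 of 9 (9.21% of all). The methods' own test without adjustment reached that level for 1 of the 9, the dimmer Cdkn2c probe, and for 20.1% of all probes. It called 0 of 9 members with the methods' 2-fold threshold (3.09% of all) and 0 of 9 after adjustment (0.0358% of all). In 2 of the 9 the genotypes did not overlap, Rb1 and the dimmer Cdkn2c probe, against 31.2% of all tested probes (20% higher, 11.2% lower). The 9 fitted differences ran from -0.59 to 0.70, so none exceeded 2-fold, as 3.94% of all tested probes did. With the Eif2s3y signal as a covariate, an alternative chosen after seeing the data, all 9 kept their sign and limma again called 0, beside 0.117% of all probes. At an unadjusted p under 0.05 that fit had 2 of 9 members and 4090 of 19575 probes. With array weights, whose estimation stopped before it converged, 5 of 9 passed, beside 41.7% of all probes. With the leading letter as a random term 9 of 9 passed, beside 65.9% of all probes. That fit estimated the correlation within a letter at -0.886, a negative value that a shared letter effect cannot give. No letter holds both genotypes, so no conclusion is drawn from its calls. Normexp background correction with an offset of 50 gave smaller differences for 7 of the 9: 0.18 for Cdkn2a, 0.17 for Cdkn2b, 0.23 and 0.33 for the brighter and dimmer Cdkn2c probes, -0.30 for Rb1, -0.07 for Rbl2 and -0.21 for Cbx7.

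**Figure D1:**
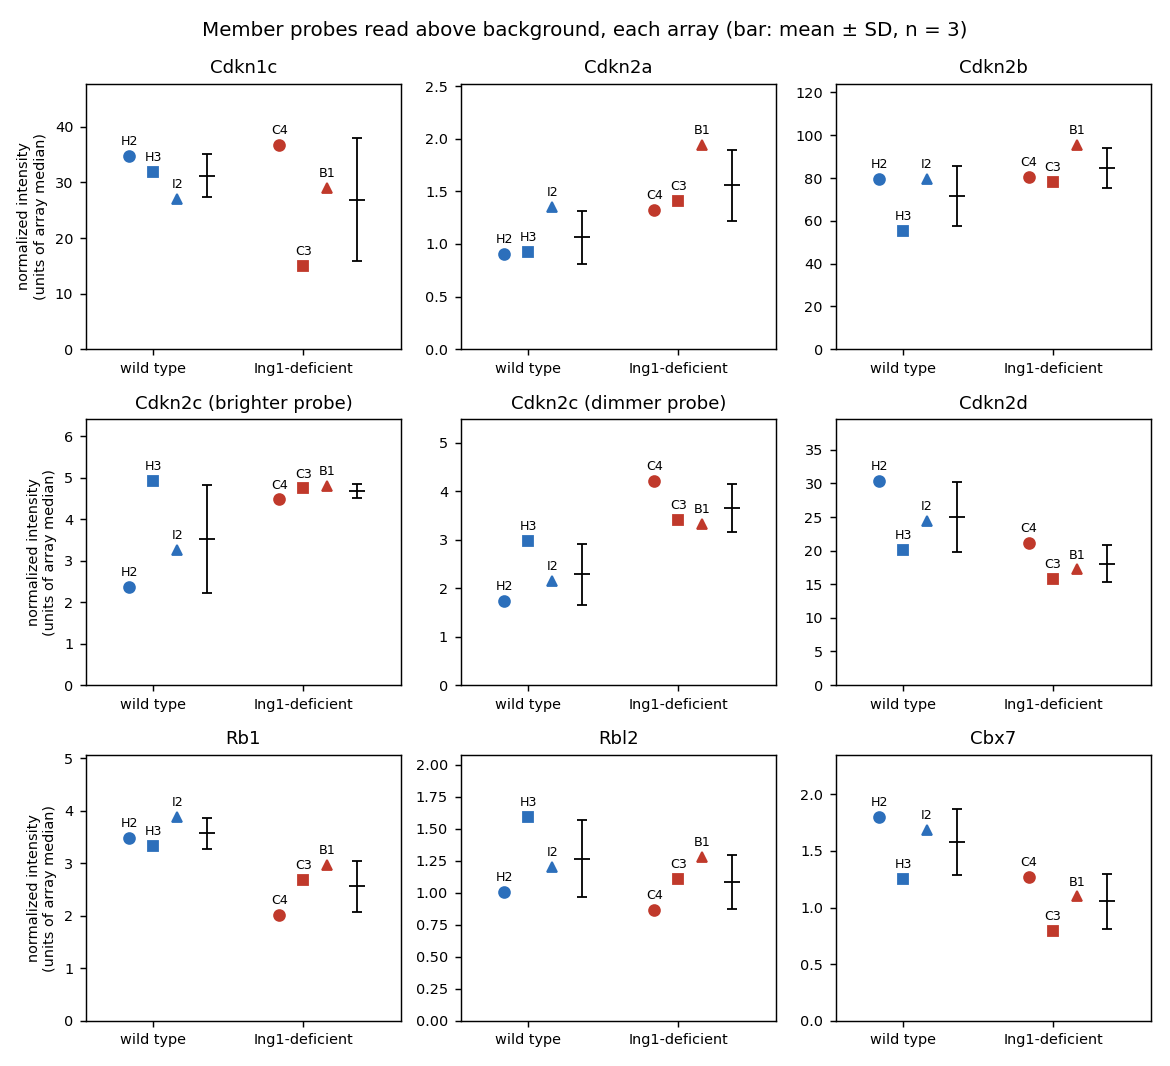
Normalized intensity (units of the array median, linear axis from 0) of the 9 member probes read above background, 1 point per culture, blue for wild type and red for Ing1-deficient, with the mean and SD of 3 arrays as a black bar. Rb1 and the dimmer Cdkn2c probe separate the genotypes, and in the other 7 panels the ranges of the genotypes overlap.

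Cdkn2a was dim in every culture. Its probe, annotated to the RefSeq transcript that encodes Arf, read 1.32 (C4), 1.41 (C3) and 1.94 (B1) in deficient cultures, where wild-type cultures read 0.909 (H2), 0.926 (H3) and 1.35 (I2) (means 1.56 ± 0.335 and 1.06 ± 0.250, SD, n = 3). The wild-type culture I2 stood above the deficient culture C4, so the groups overlapped. The difference was 0.56 ± 0.22 (95% interval 0.07 to 1.05, limma adjusted p = 0.146), a 1.47-fold ratio, and 0.35 with the floor doubled. The sources used here do not say which exon the probe reads, so signal from the Ink4a and Arf transcripts cannot be told apart. Signals were still above the negative control spots, whose 95th percentile was 0.300 to 0.397 over the arrays.

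Cdkn2b, the gene of p15 beside Cdkn2a on the chromosome, gave a bright signal. Deficient cultures read 80.5 (C4), 78.1 (C3) and 95.5 (B1), and wild-type cultures 79.8 (H2), 55.3 (H3) and 79.7 (I2). H3 was the lowest of the 6 cultures, and the others lay at 78.1 or more. The difference was 0.26 ± 0.19 (95% interval -0.17 to 0.69, limma adjusted p = 0.428), 0.08 without H3, 0.17 without B1 and 0.16 under quantile normalization.

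Cdkn2c, the gene of p18, had the smallest p among the members. Its dimmer probe read 4.21 (C4), 3.4 (C3) and 3.33 (B1) in deficient cultures and 1.73 (H2), 2.97 (H3) and 2.15 (I2) in wild type (means 3.65 ± 0.492 and 2.28 ± 0.628, SD, n = 3). All 3 deficient cultures were above all 3 wild-type ones, by 0.70 ± 0.22 on the log2 scale (95% interval 0.22 to 1.19, 1.63-fold, limma adjusted p = 0.0826). The brighter probe read 4.47 (C4), 4.74 (C3) and 4.79 (B1) and varied more among wild-type cultures, at 2.36 (H2), 4.92 (H3) and 3.27 (I2). There H3 was the highest of all 6, the groups overlapped, and the difference was 0.47 ± 0.25 (limma adjusted p = 0.259). On both probes H2 was lowest, I2 next and H3 highest among the wild-type cultures. The brighter and dimmer probes correlated at r = 0.889 over the 6 arrays, as a description of 2 probes read on the same RNA. Without H3 the differences were 0.75 (limma adjusted p = 0.0368) and 0.91 (limma adjusted p = 0.0207), and both probes passed, in a fit where 13.9% of all probes did. Without H2 they were 0.22 (limma adjusted p = 0.618) and 0.52 (limma adjusted p = 0.236), and neither passed, in a fit where 0.123% of all probes did.

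Cdkn2d, the gene of the Ink4 protein p19, had its highest values in wild-type cultures. These read 30.4 (H2), 20.1 (H3) and 24.4 (I2), and the deficient ones 21.1 (C4), 15.8 (C3) and 17.2 (B1). H3 was below C4, so the groups overlapped by 1 culture on each side. The difference was -0.46 ± 0.20 (95% interval -0.90 to -0.01, limma adjusted p = 0.182), which is 1.37-fold higher in wild type. Without H2 it was -0.30 (limma adjusted p = 0.447).

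Cdkn1c, the imprinted gene of p57, differed by culture more than by genotype. Deficient cultures spread from 14.9 (C3) through 29.0 (B1) to 36.8 (C4), and wild-type cultures from 27 (I2) through 31.9 (H3) to 34.7 (H2). C3 was the lowest of the 6, and the other deficient cultures lay within or above the wild-type range. The difference was -0.31 ± 0.30 (95% interval -0.98 to 0.37, limma adjusted p = 0.564), -0.58 without C4, and 0.07, with the sign turned, without C3. C3 was also the culture with the highest summed macrophage marker signal (169.6, against 54.5 and 88.6 in C4 and B1 and 24.9 to 59.0 in wild type), and its part in the Cdkn1c value was not tested.

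Among the pocket protein genes Rb1 was the clearest. Its brighter probe read 3.48 (H2), 3.33 (H3) and 3.89 (I2) in wild type and 2.02 (C4), 2.69 (C3) and 2.97 (B1) in deficient cultures (means 3.57 ± 0.289 and 2.56 ± 0.488, SD, n = 3). Every deficient culture was below every wild-type culture, and C4 was lowest. The difference was -0.49 ± 0.18 (95% interval -0.91 to -0.08, limma adjusted p = 0.128), which is 1.41-fold higher in wild type. Without C4 it was -0.33.

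Rbl2, the gene of p130, was dim, at 0.864 (C4), 1.11 (C3) and 1.28 (B1) without Ing1 and 1.0 (H2), 1.59 (H3) and 1.20 (I2) with it. The 2 ranges overlapped over most of their length, with H3 highest and C4 lowest. The difference was -0.22 ± 0.22 (95% interval -0.71 to 0.28, limma adjusted p = 0.577), -0.06 without C4, -0.04 without H3, -0.37 without H2, -0.35 without B1 and -0.13 with the floor doubled.

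Rbl1, the gene of p107, was not well above background in any culture. Its probe, flagged low on all 6 arrays, read 0.0115 (C4), 0.0088 (C3) and 0.136 (B1) in deficient and 0.0794 (H2), 0.138 (H3) and 0.207 (I2) in wild-type cultures. All 6 values were under the 95th percentile of the negative control spots of their own array, so the array gave no comparison for Rbl1. The second Rb1 probe (0.0572 to 0.324) and the second Cbx7 probe (-0.085 to 0.102), each annotated to an expressed sequence tag, were flagged low in the same way. They therefore neither repeat nor oppose the values of the brighter probes.

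**Figure D2:**
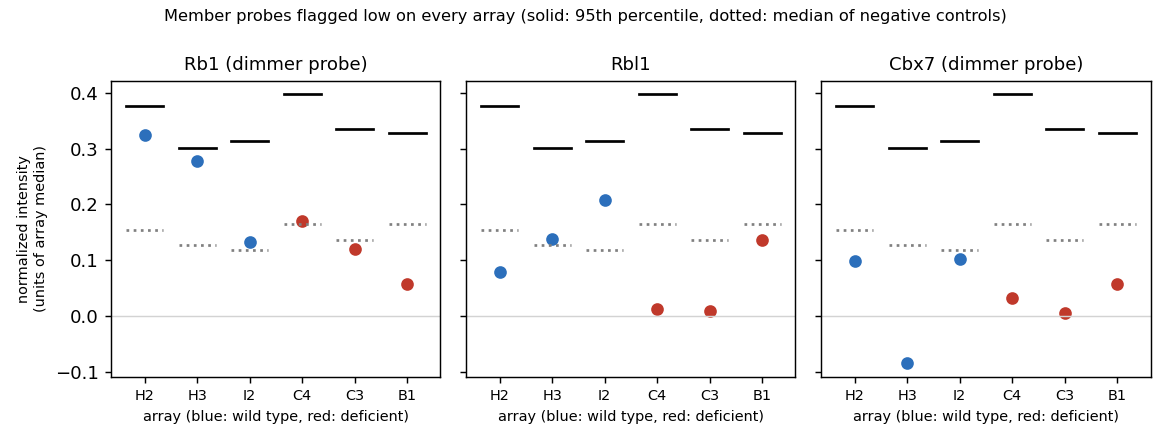
Normalized intensity (units of the array median) of the 3 member probes flagged low on every array, 1 point per array, blue for wild type and red for Ing1-deficient. The solid bar is the 95th percentile and the dotted bar the median of the negative control spots on that array, and every point lies under its solid bar.

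Cbx7 was lower on average in the deficient cultures. The brighter probe read 1.80 (H2), 1.25 (H3) and 1.68 (I2) in wild type, and 1.27 (C4), 0.794 (C3) and 1.1 (B1) in deficient cultures (means 1.58 ± 0.289 and 1.05 ± 0.241, SD, n = 3). C4 stood just above H3, and the other deficient cultures stood below all wild-type ones. The difference was -0.59 ± 0.22 (95% interval -1.09 to -0.10, limma adjusted p = 0.129), which is 1.51-fold higher in wild type. Without H3 it was -0.75 (limma adjusted p = 0.0591) and without C3 it was -0.40.

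**Figure D3:**
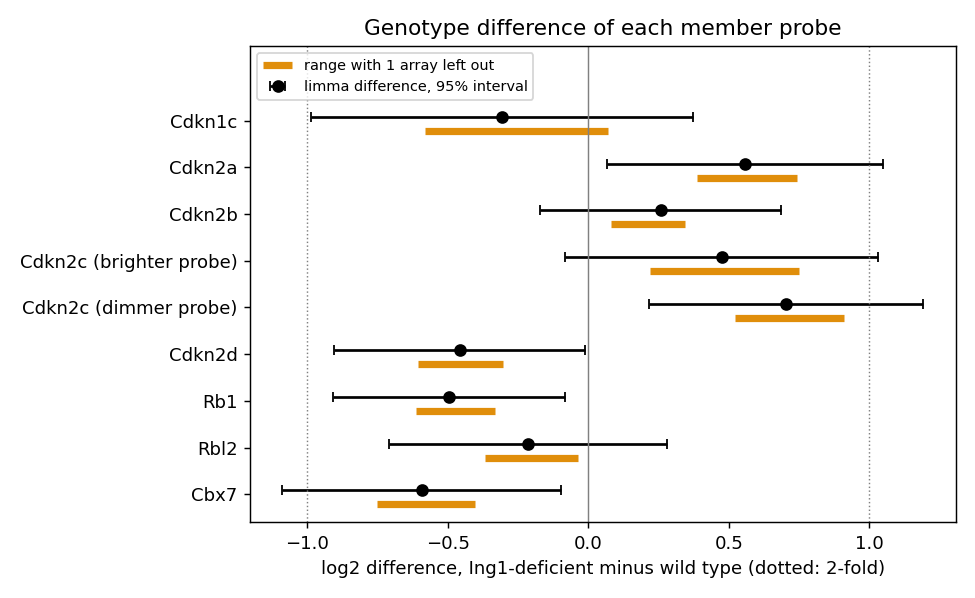
Log2 difference (Ing1-deficient minus wild type) of the 9 tested member probes with the 95% interval of the limma fit (black) and the range of the difference when 1 array is left out (orange). The dotted lines mark 2-fold, and the orange bar crosses 0 for Cdkn1c.

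The member patterns were set beside those of the other tested genes over the 6 arrays, as a description. Of 11858 genes compared, those closest to Rb1 were Hbs1l (Pearson r 0.993), Vmn1r87 (0.991) and Amotl2 (0.988). Cbx7 ran closest to Ikzf3 (0.999), Col26a1 (0.995) and Rnf130 (0.989), and Cdkn2a to Capn2 (0.977), Rprm (0.975) and Tbcel (0.968). With 6 arrays and so many genes, coefficients of this size carry no test.

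The partners that the inhibitors act on were examined from a list of 15 cyclins, kinases and related genes, with 1 probe per gene. Of the 15, 4 rose, 0 fell and 11 did not pass, where 6.02% of all 11893 tested genes rose and 1.61% fell. Ccnd1, the cyclin of CDK4 and CDK6, rose by 1.02 ± 0.24, and Ccne1, the cyclin of CDK2, by 0.70 ± 0.15. Cdk2 rose by 0.68 ± 0.15 and Cdk6 by 1.0 ± 0.18 (limma adjusted p of the 4 between 0.0271 and 0.0428). The Ccnd1 probe was flagged low in H2 and entered the test through the deficient cultures. The other Cdk6 probes gave 0.46 ± 0.21, which did not pass, and -1.19 ± 0.27, which passed in the opposite direction (limma adjusted p = 0.037). The latter probe was flagged low in C4 and B1 and entered the test only through the wild-type cultures, where it was higher. Cdk7, chosen after its values were seen, did not pass at its brighter probe (0.37 ± 0.18, limma adjusted p = 0.244). Its dimmer probe, not used in the count, passed (1.31 ± 0.22, limma adjusted p = 0.023). Cdkn1a, the p21 inhibitor gene, was chosen after its values were seen. It read 42.5, 58.4 and 49.1 in deficient and 88.9, 54.1 and 82.1 in wild-type cultures (-0.57 ± 0.22, limma adjusted p = 0.146). The list median was 0.37, against 0.07 over all tested genes.

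Of 18 E2F, DP and DREAM complex genes that work with the pocket proteins, 2 rose, 0 fell and 16 did not pass, with a median of 0.28. Over all tested genes 6.02% rose and 1.61% fell. E2f2, an activating E2F, rose by 1.35 ± 0.34, with C4 at 5.33 and the other deficient cultures at 2.14 and 2.59, above 0.884 to 1.5 in wild type. Tfdp1, the DP partner of E2F, rose by 0.93 ± 0.17 (9.36 to 11.1 against 4.52 to 6.14). Its relative Tfdp2, chosen after its values were seen, had a difference of -1.05 ± 0.29 that did not pass (limma adjusted p = 0.0659).

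Known E2F target genes were tested in 21 of 25 cases, and 7 rose, 0 fell and 14 did not pass, with a median of 0.51. Beside them, 6.02% of all tested genes rose and 1.61% fell. The replicative helicase genes Mcm3 (1.09 ± 0.23), Mcm4 (0.94 ± 0.22), Mcm5 (1.27 ± 0.31) and Mcm7 (1.1 ± 0.27) rose. So did the licensing gene Cdc6 (1.46 ± 0.29), the ribonucleotide reductase gene Rrm2 (0.87 ± 0.20) and Ccne1, which is on both lists. The Cdc6 probe was flagged low in H2 and entered the test through the deficient cultures. Ccne2, also on both lists, did not pass (0.45 ± 0.17, limma adjusted p = 0.124) but counts in both list medians. Its probe had a good flag on only 3 arrays and entered the test only through the deficient cultures, where it was higher. Its wild-type values (0.244 to 0.289) were all under the floor. Tk1, chosen after its values were seen, did not pass at its brighter probe (1.23 ± 0.32, limma adjusted p = 0.0545). Its dimmer probe, not used in the count, passed (1.34 ± 0.34, limma adjusted p = 0.0488). The 21 tested genes lay highest in C4, at a median 0.65 above their own means, against 0.17 in C3, 0.12 in B1 and -0.36 to -0.24 in wild type. The 5 markers of dividing cells with a probe summed to 76.0 (C4), 43.6 (C3) and 54.6 (B1) in deficient and 46.6 to 49.6 in wild-type cultures, and 0 of the 4 tested passed in limma, with 0 at an unadjusted p under 0.05. Their part in the E2F target values was not tested.

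The counts of calls in these 3 lists moved with the scaling and with the arrays used, and so did the share of all probes called. That share was 6.57% in the main fit, 3.77% under quantile, 3.83% under cyclic loess and 2.94% under normexp processing. It was 0.976% with the floor doubled, 13.9% without H3 and 0.0255% to 1.94% when any other array was left out. The target list had 1 call after quantile, cyclic loess or normexp processing, 2 without C3, 9 without H3 and 0 without C4, B1, H2 or I2, with a median between 0.28 and 0.66 throughout. The cyclin list had 1, 2 and 2 calls under those 3 scalings and 0 when any array other than H3 was left out, with 5 higher and 1 lower without H3. The E2F partner list had 1 under each scaling and 0 when any array other than H3 was left out, with 1 higher and 1 lower without H3. With the floor doubled the 3 lists had 0 (targets), 1 (cyclins) and 0 (partners). Cyclic loess and the changed floor were added for the lists after seeing the data.

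Polycomb genes that act with Cbx7 at the Ink4/Arf locus gave 1 call among 15 tested (6.67%, near the 6.02% of all tested genes that rose), Phc2, a PRC1 subunit gene, which rose by 0.79 ± 0.15 (15.4 to 16.3 against 8.56 to 10.1). The other 14 did not pass and the list median was -0.03. The call was lost without C4, C3, B1, H2 or I2, in fits where 0.0255% to 1.94% of all probes passed. The list kept 1 call under quantile, cyclic loess or normexp processing and with the floor changed.

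Of 12 tested regulators of Arf and p53, 0 passed in limma, 5 had an unadjusted p under 0.05 (28.2% of all tested genes did) and the median was 0.22. The lowest p-values were those of Myc, a known inducer of Arf (1.12 ± 0.33, limma adjusted p = 0.0723), and Runx1 (0.58 ± 0.19, limma adjusted p = 0.0919). Of 12 tested genes of p27 and p57 turnover and transcription, 0 passed in limma, 5 had such an unadjusted p and the median was 0.30. The ubiquitin ligase subunit gene Skp1 (0.62 ± 0.16, limma adjusted p = 0.0533) and Cops5 (0.47 ± 0.16, limma adjusted p = 0.107) had the lowest p-values. Without H3, 5 of the first 12 and 1 of the second 12 passed, in a fit where 13.9% of all probes did.

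Among the chromosomal neighbours of the Ink4/Arf and Cdkn1c loci 2 of 9 tested genes rose and 0 fell, with a median of 0.07. Over all tested genes 6.02% rose and 1.61% fell, and the median was also 0.07. Mtap, a methionine salvage gene beside the Ink4/Arf locus, read 26.3 (C4), 24.2 (C3) and 25.3 (B1) in deficient and 9.78 (H2), 16.6 (H3) and 14.6 (I2) in wild-type cultures. It rose by 0.92 ± 0.21 (limma adjusted p = 0.0368), and its second probe rose by 1.07 ± 0.23 (limma adjusted p = 0.035). Whether this differs from the values of Cdkn2a and Cdkn2b was not tested. Tssc4, in the imprinted region around Cdkn1c, rose by 0.77 ± 0.17 (limma adjusted p = 0.0367). The calls of both genes were lost under quantile normalization, in cyclic loess, with the floor doubled, and without C4, C3, B1, H2 or I2. Of all probes 3.77% passed under quantile normalization, 3.83% in cyclic loess and 0.976% with the floor doubled. With 1 of those arrays left out 0.0255% to 1.94% did. Phlda2, also near Cdkn1c and chosen after its values were seen, had a difference of -1.84 ± 0.48 that did not pass (limma adjusted p = 0.0538). Its probe had a good flag on 5 of 6 arrays, and C3 (0.365) was under the floor. Of the 9 tested neighbours 5 had a positive difference.

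**Figure D4:**
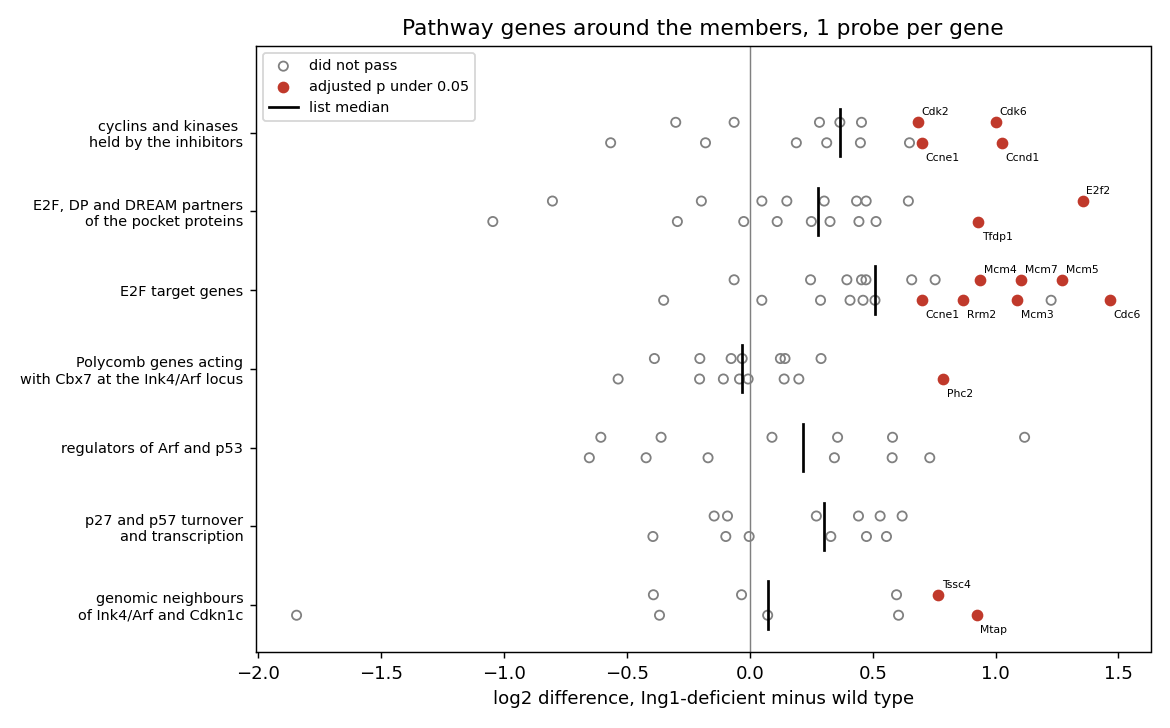
Log2 difference (Ing1-deficient minus wild type) of the tested genes of 7 lists around the members, 1 point per gene, filled where the limma adjusted p was under 0.05, with the list median as a black bar. The filled points lie to the right of 0, and they number 7 among the E2F targets and 4 among the cyclins and kinases.

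Markers of other cells were read on the same arrays. Of the macrophage markers 10 of 12 had a probe and 3 of 8 tested rose (C1qa, C1qb and Mrc1, named after their values were seen). Over all tested genes 6.02% rose. At an unadjusted limma p under 0.05 there were 6 of the 8, where 28.2% of all tested genes reached that level. Mrc1 was flagged low in H2 and H3 and entered the test only through the deficient cultures, where it was higher. Ptprc was flagged low in all cultures. Endothelial markers summed to 3.52 to 4.65 in deficient and 2.98 to 3.30 in wild-type cultures, with Pecam1, Cdh5 and Cldn5 flagged low everywhere, and limma called 0 of the 2 tested, with 0 at an unadjusted p under 0.05. Epithelial markers summed to 4.84 to 7.56 and 5.36 to 7.15 (limma called 0 of 3 tested, with 0 at an unadjusted p under 0.05). Skeletal muscle markers summed to 15.8 to 27.2 and 11.7 to 15.2 (limma called 0 of 3 tested, with 1 at an unadjusted p under 0.05), with Ckm and Actn2 flagged low. The part of any of these cells in the values of the members was not tested. The fibroblast markers summed to 1051 to 1146 in deficient and 920 to 1102 in wild-type cultures. In limma 2 of 12 rose (Thy1 and Lum, also named after their values were seen), and 5 of 12 had an unadjusted p under 0.05.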

How the data were processed

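Per the file headers, CodeLink Expression Analysis (version 4.1.0.29054) made the scanner tables. Their deposited normalized intensity is the background-corrected spot signal divided by the array's median, which the labels name as median normalization. The series' value table held the same intensities (216398 of 216398 values equal). Values under the floor of 0.5702, the median over arrays of the 1st percentile of probes with a good flag, were set to it before log2. A probe was tested when it had a good flag on all 3 arrays of a genotype. The two-sided fit used limma 3.58.1 in R 4.3.3 without covariates, p-values adjusted by Benjamini-Hochberg across the tested probes, and was tested on simulated data. A gene with several probes was taken in list counts at its brightest tested probe. Text names all members and the 3 genes most like Rb1, Cbx7 and Cdkn2a. From the lists it names genes past the threshold, or the 2 with the lowest p where a list had none. Cdkn1a, Tfdp2, Cdk7, Ccne2, Tk1 and Phlda2 fall outside this rule and were chosen after their values were seen. The same holds for the marker genes so described. The members and lists were chosen with earlier results of these data known. Gene symbols came from the platform annotation: 21615 probes had 1 symbol, 681 several and 12671 none. Promoter windows came from RefSeq. Alternatives were other background, scaling, floor, filter, variance and test choices and leaving out each array. With 3 arrays a genotype, their number limits the precision.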

Additional observations from a re-analysis of the deposited data

How the results depend on the processing

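Over 21 alternatives per member probe, 1 of them added after seeing the data, 8 of 9 kept their sign, and Cdkn1c reversed, only without C3, to 0.070 (-0.58 to 0.07 over arrays left out). The cause was not tested. The count of member probes called was 0 and stayed 0 except in the following fits. It was 5 with array weights (8160 of all probes called, 41.7%, from weights whose estimation stopped before it converged). With the leading letter as a random term it was 9 (12901, 65.9%), from a consensus correlation of -0.886 that a shared letter effect cannot give. It was 1 by the methods' unadjusted test (3926) and 0 to 2 with 1 array left out, the 2 being Cdkn2c without H3. Of all probes, 1286 passed in the fit reported. Quantile normalization gave 737 (447 higher, 290 lower, against 967 and 319), cyclic loess 749, normexp 576, the doubled floor 191, no filter 20 of 34852 and the Eif2s3y covariate 23. The methods' test gave 605 with its 2-fold threshold and 7 after adjustment. Leaving out 1 array gave 52 (C4), 379 (C3), 5 (B1), 24 (H2), 2726 (H3) and 17 (I2). Scaling moved the median of all probes by -0.07 at most. Turnover genes had 1 call under normexp and 1 with probes averaged. No paired analysis was possible because the labels do not say which cultures share a litter. The genotypes share only 1 replicate number (3, in C3 and H3), and its meaning is not given. Signal over background limits Rbl1 and the dimmer Rb1 and Cbx7 probes, for which no difference could be measured.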
